A study of Mus musculus with 2 samples.

Results

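The genes described here handle transition metals in the cell. They are the zinc importers of the Slc39a (ZIP) family, the zinc exporters and compartment loaders of the Slc30a (ZnT) family, the copper transporters Slc31a1 and Slc31a2, the copper pumps Atp7a and Atp7b, the divalent metal transporters Slc11a1 and Slc11a2, the metallothioneins Mt1 to Mt4, and Mtf1, a zinc-sensing transcription factor. The rule that picks them uses only gene symbols, although earlier results of these data were known when the families were chosen. Of the 22180 genes measured, 33 belonged to the set, each through 1 probe set. A further 2 genes of these families, Slc30a1 and Slc30a10, were measured only by probe sets that carry a second gene symbol, and they stand outside the counts.

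Liver RNA of 2 groups was compared, E4bp4-LKO and wild type (WT). E4bp4, whose gene symbol is Nfil3, is a basic leucine zipper transcription factor known as a repressor. All mice of both groups were male and ate a high-fat diet for 12 weeks, beginning when they were 2 months old. Each group was 1 microarray hybridised with RNA pooled from several mice, so no difference below has a replicate, an error between animals or a test. The number of mice in a pool, and the promoter or cell type that limits the E4bp4 deletion, have no label in the sources used here.

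Nfil3 read 4.47 on the E4bp4-LKO array and 5.94 on the WT array, in log2 intensity. The tissue label fitted its markers: all 9 hepatocyte markers examined were well inside the measured range, averaging 11.03 on the E4bp4-LKO array and 10.95 on the WT array. Differences are in log2 units and run E4bp4-LKO minus WT, so a negative one is lower in E4bp4-LKO. A gene was counted only if its mean over both arrays passed a floor of 4.20, the median of all genes, and a difference of 1.5-fold (0.58 on the log2 scale) was the threshold for naming it higher or lower. Since the RNA came from whole liver with its cell types mixed, fewer cells of a type and less RNA per cell cannot be told apart. On the E4bp4-LKO array, markers of other cell types also read differently: 6 of 7 skeletal muscle markers above the floor were at least 1.5-fold lower (median -1.16), all 6 stellate cell markers were negative (median -0.40) and so were all 6 endothelial markers (median -0.29). All 4 squamous epithelium markers that passed the floor differed by over 1.5-fold, 3 of them higher and 1 lower (median 2.01). Their part in the results below was not tested.

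As background, zinc enters the cytosol through ZIP proteins and leaves it, to the outside or into organelles, through ZnT proteins. Metallothioneins are small cysteine-rich proteins that bind surplus zinc and copper, and the liver makes much of Mt1 and Mt2 in response to metals, glucocorticoids and inflammatory cytokines. MTF1 binds free zinc and then activates Mt1, Mt2 and the exporter gene Slc30a1 through short metal response elements (MREs). The liver also stores copper and excretes it into bile, a step that depends on Atp7b.

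Of the 33 genes, 26 passed the floor. Lower by at least 1.5-fold on the E4bp4-LKO array were 3 of them (11.5%), namely Slc39a4, Mt2 and Slc39a5, against a background of 2.06% of all 11090 genes above the floor. None of the 26 was higher by as much, where the background was 1.51%. A negative difference of any size was seen for 20 of the 26, or 76.9%, against 54.5% of all genes above the floor. The median difference of the 26 was -0.12, and that of all genes above the floor was -0.02. Most of the set lay close to 0: 17 of 26 (65.4%) differed by less than 0.2, as did 65.7% of all genes above the floor. Sizes in the set were thus much like those of the array at large, apart from the 3 lower members and a lean to negative signs.

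**Figure D1:**
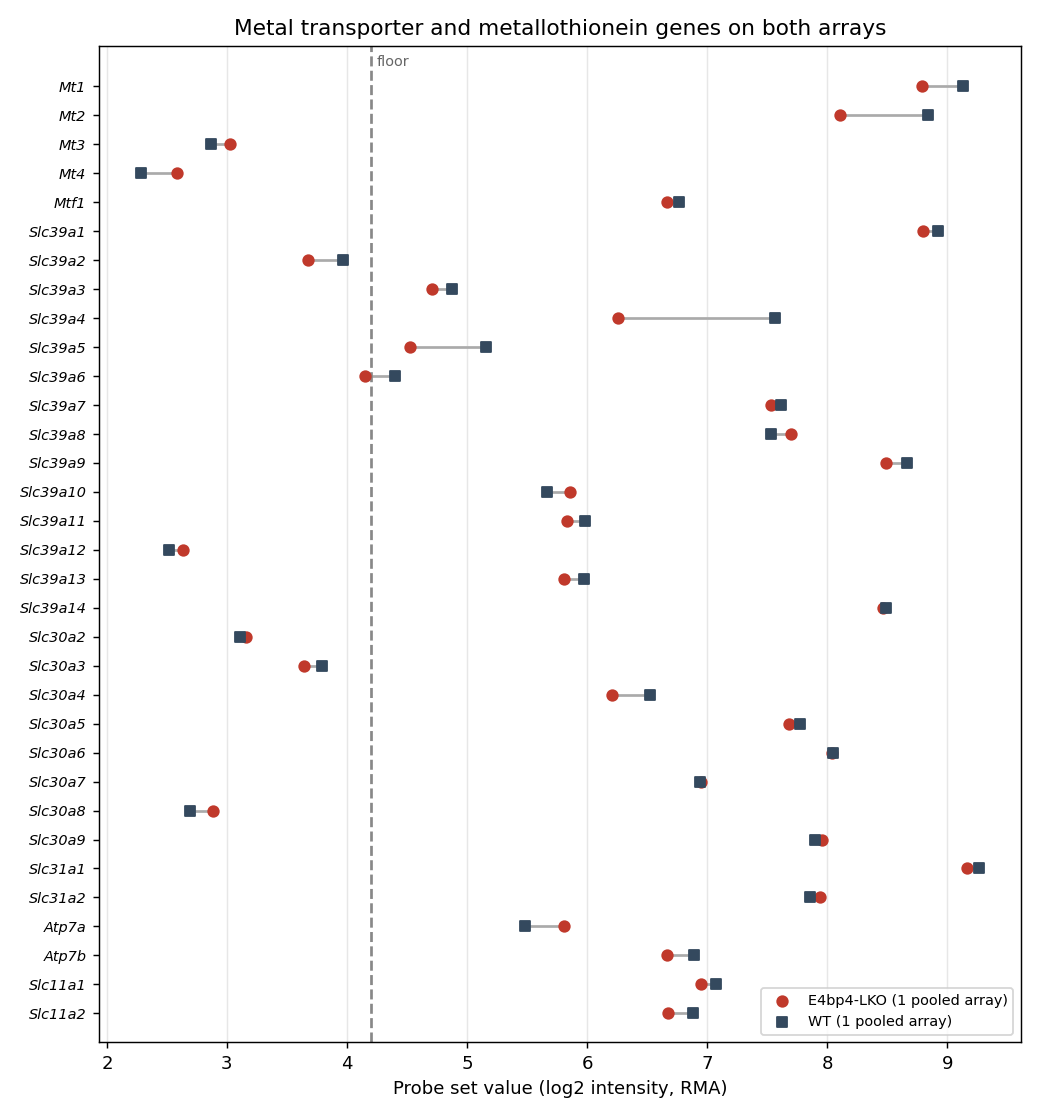
Log2 intensity of the 33 genes (rows, grouped by family) on the E4bp4-LKO array (red circles) and the WT array (dark squares), 1 pooled array each, with the floor of 4.20 dashed. Slc39a4, Mt2 and Slc39a5 show the long gaps to the left, and for most other genes the symbols nearly touch.

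Metallothioneins came in a bright pair and a dim pair. Mt2 read 8.11 on the E4bp4-LKO array and 8.84 on the WT array, a difference of -0.73 (1.66-fold lower). Only 115 of the 11090 genes above the floor, Mt2 included, had a difference as low or lower. Mt1 read 8.79 on the E4bp4-LKO array and 9.13 on the WT array, a difference of -0.34 (1.27-fold lower), which is under the threshold. Both differences were negative, and Mt2 alone passed the threshold. The gap of 0.39 between their differences may be set beside the typical gap between 2 probe sets of the same gene, whose root mean square was 0.31 over 555 genes. Those genes were taken at all levels above the floor and were not matched to Mt1 and Mt2 in brightness. Mt1 and Mt2 are close paralogs and the probe sequences were not used, so signal shared between them cannot be told apart.

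The other metallothioneins have their main expression outside the liver. Mt3, the brain form, read 3.03 on the E4bp4-LKO array and 2.87 on the WT array. Mt4, the form of stratified squamous epithelium, read 2.58 on the E4bp4-LKO array and 2.28 on the WT array. Both genes were under the floor on both arrays, so no fold is given for them. Among the squamous epithelium markers the keratin genes Krt4 and Krt13 and the keratinocyte gene Krtdap differed by 2.95, 2.26 and 1.76, and Sprr1a, a cornified envelope gene, by -2.22. Krt14 and Dsg3, a basal keratin and a desmosomal cadherin of that epithelium, were under the floor on both arrays. Lor, also on that list, read 4.38 on the E4bp4-LKO array and 3.74 on the WT array (0.63). Its mean of 4.06 was under the floor, so it was not counted.

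In the RefSeq gene order of assembly GRCm38.p6 the 4 metallothionein genes lie side by side, in the order Mt4, Mt3, Mt2, Mt1. The 3 nearest measured protein-coding genes on each side (Nudt21, Ogfod1, Bbs2, Nup93, Slc12a3 and Herpud1) differed by between -0.20 and 0.10. Neither Mt1 nor Mt2 lay within that range.

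The promoters of Mt1 and Mt2 are shown because Mt2 passed the threshold, Mt1 is its adjacent paralog, and both are textbook MRE genes. The MRE core was searched on both strands as TGCACNC and TGCGCNC in the RefSeq windows of GRCm38.p6 that run from 250 bases before to 50 bases after each start. Below are the 250 bases before each start, with matches to the core in capitals. They are chr8:94178839-94179088 (plus strand) for Mt1 and chr8:94172368-94172617 (plus strand) for Mt2.
Mt1: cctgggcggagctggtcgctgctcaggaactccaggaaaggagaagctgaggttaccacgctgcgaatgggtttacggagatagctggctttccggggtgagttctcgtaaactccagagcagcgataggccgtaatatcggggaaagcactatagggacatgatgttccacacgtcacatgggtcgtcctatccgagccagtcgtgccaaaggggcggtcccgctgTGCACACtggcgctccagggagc
Mt2: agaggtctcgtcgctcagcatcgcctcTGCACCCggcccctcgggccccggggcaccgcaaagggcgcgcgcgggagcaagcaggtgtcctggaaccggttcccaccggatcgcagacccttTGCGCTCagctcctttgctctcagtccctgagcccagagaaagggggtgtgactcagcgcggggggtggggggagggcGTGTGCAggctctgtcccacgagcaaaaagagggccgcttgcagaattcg

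Over its full window Mt2 held 4 matches, on both strands, and Mt1 held 3, all on its own strand. The Mt1 gene record begins at chr8:94178883, inside the printed bases, so the Mt1 window is set from a later start. Counts and positions of matches hold only for the starts used here. Of the Mt1 matches 1 lies before the start and 2 within the 50 bases after it. Windows with at least 3 matches made up 1.97% of all 32851 promoter windows, and those with at least 4 made up 0.517%. Across the metal genes a window was found for 28 of the 33 and for Slc30a1 and Slc30a10, 35 windows in all because some genes have more than 1 start. At least 1 MRE core stood in 19 of the 35 (54.3%), against 25.7% of all windows. Genes with a match differed in both directions, and Slc39a4, at -1.30, was not among the genes with a match. Whether Slc39a4 was among the 28 members with a window is not given here, and a member without one cannot have a match. The relation of matches to the differences was not tested. Slc30a4, with 3 matches, differed by -0.32, Atp7a, with 2, by 0.32, and Slc39a5, with 1, by -0.64. The E4BP4 recognition sequence, searched as TTATGTAA and TTACGTAA on both strands, was in none of the 35 windows and in 1.06% of all windows. With a share that low, its absence from 35 windows says little about these genes. The antioxidant response element core, searched on both strands as TGACNNNGC, was found in 8 of the 35 windows, those of Mt2 and Slc39a5 among them, and in 12.4% of all windows. No match to it overlapped an MRE match. A match is only a run of letters in this window.

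**Figure D2:**
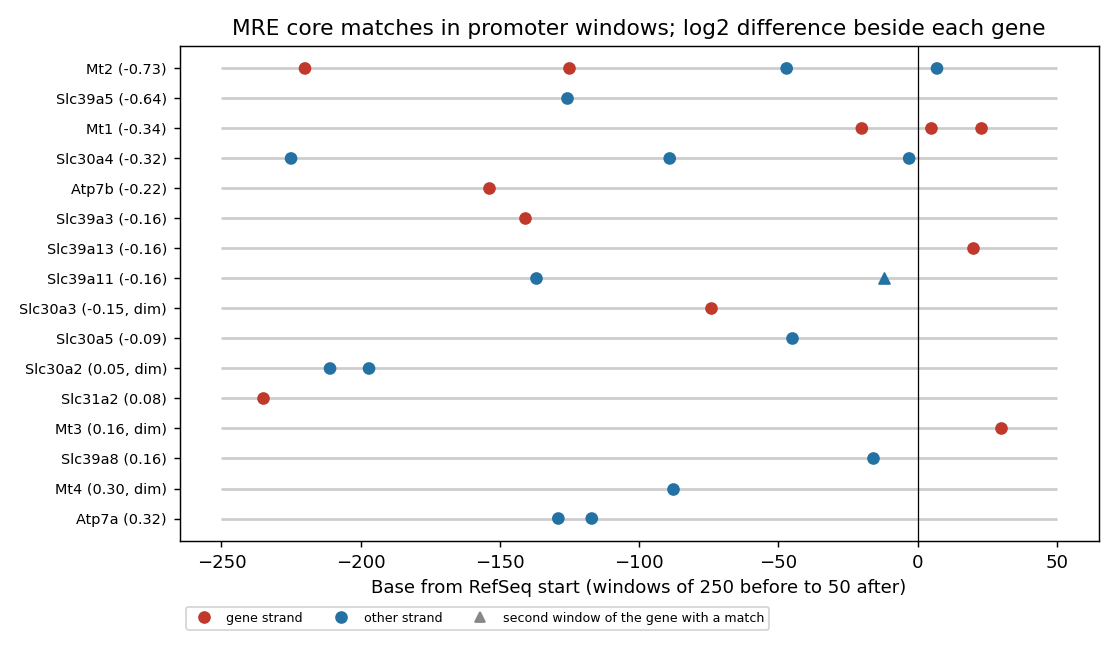
Positions of MRE core matches in the promoter windows (x axis: bases from the RefSeq start, which is 0) for the members with a match, sorted from the lowest to the highest difference (log2, in parentheses, dim where the gene is under the floor). Mt2 carries 4 matches and Mt1 carries 3, and genes near 0 or above it, such as Atp7a with 2, carry them as well.

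Mtf1 itself read 6.67 on the E4bp4-LKO array and 6.77 on the WT array, a difference of -0.10. A second probe set that names Mtf1 with another gene differed by 0.04. Slc30a1, the exporter of the plasma membrane and an MTF1 target, read 6.99 on both arrays in the probe set that lists it first, a difference of -0.01. Of 7 other genes reported to depend on MTF1, all above the floor, none passed 1.5-fold in either direction. With so few genes that is close to the background of 2.06% lower and 1.51% higher. The median of the 7 was -0.15, with 5 negative and 2 positive. Of all genes above the floor 54.5% were negative, with a median of -0.02. Farthest from 0 were Ndrg1, a stress-responsive gene (-0.33), Csrp1, a LIM-domain protein gene (-0.19), Gclc, the catalytic subunit of glutathione synthesis (-0.16), and Cebpa, a hepatocyte transcription factor (-0.15). All 7 differed by less than Mt2. That says little, since only 1.04% of all genes above the floor were as low as Mt2 or lower.

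Genes that respond to other known inducers of metallothioneins were also examined, and the activity of the inducers themselves was not measured. Among 12 glucocorticoid-responsive genes, 1 was at least 1.5-fold higher and none lower, where 1.51% and 2.06% of all genes above the floor were. Their median was 0.13, with 7 positive and 5 negative, and that of all genes above the floor was -0.02. Ddit4, an mTOR inhibitor gene, differed by 0.87, Tsc22d3, which encodes the glucocorticoid-induced leucine zipper, by 0.55, Zbtb16, a zinc finger factor, by -0.47 and Fkbp5, a receptor co-chaperone, by -0.37. The acute phase list had 13 genes past the floor, with a median of 0.11. In it 2 genes passed 1.5-fold, both higher, and none was lower by as much, beside the same background. Of the 13, 11 were positive and 2 negative. For the signs in both lists the background was 54.5% negative among all genes above the floor. The serum amyloid genes Saa3 and Saa2 differed by 0.89 and 0.83, the orosomucoid genes Orm3 and Orm1 by -0.50 and 0.20. The relation of these lists to the metallothionein values was not tested.

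Zinc importers of the Slc39a family held the largest difference of the set. Slc39a4 encodes ZIP4, a plasma membrane zinc importer best known from the intestine, whose loss in humans causes the zinc deficiency acrodermatitis enteropathica. It read 6.26 on the E4bp4-LKO array and 7.56 on the WT array, a difference of -1.30 (2.47-fold lower). Of the 11090 genes above the floor, 19 were as low or lower, Slc39a4 and the targeted gene Nfil3 among them. At a threshold of 2-fold it was the only member of the set, where 0.406% of all genes above the floor were lower. Its 6 nearest measured neighbours (Fbxl6, Adck5, Cpsf1, Vps28, Tonsl and Cyhr1) differed by between -0.11 and 0.11. Among 9 intestinal epithelium markers, a list added after the values were seen, 2 passed the floor: Fabp2, which hepatocytes also express, and Lgr5 differed by 0.13 and 0.15. The defining intestinal factors Cdx1 and Cdx2 were under the floor on both arrays.

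Slc39a5 encodes ZIP5, an importer of the basolateral membrane in intestine and pancreas. It read 4.52 on the E4bp4-LKO array and 5.16 on the WT array, a difference of -0.64 (1.55-fold lower). This gene was dim, its E4bp4-LKO value lying 0.32 above the floor. Its measured neighbours (Cs, Coq10a, Ankrd52, Nabp2, Rnf41 and Smarcc2) differed by between -0.18 and 0.05. Of 8 pancreas markers on the array only Cela1 passed the floor, and it differed by 0.26.

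**Figure D3:**
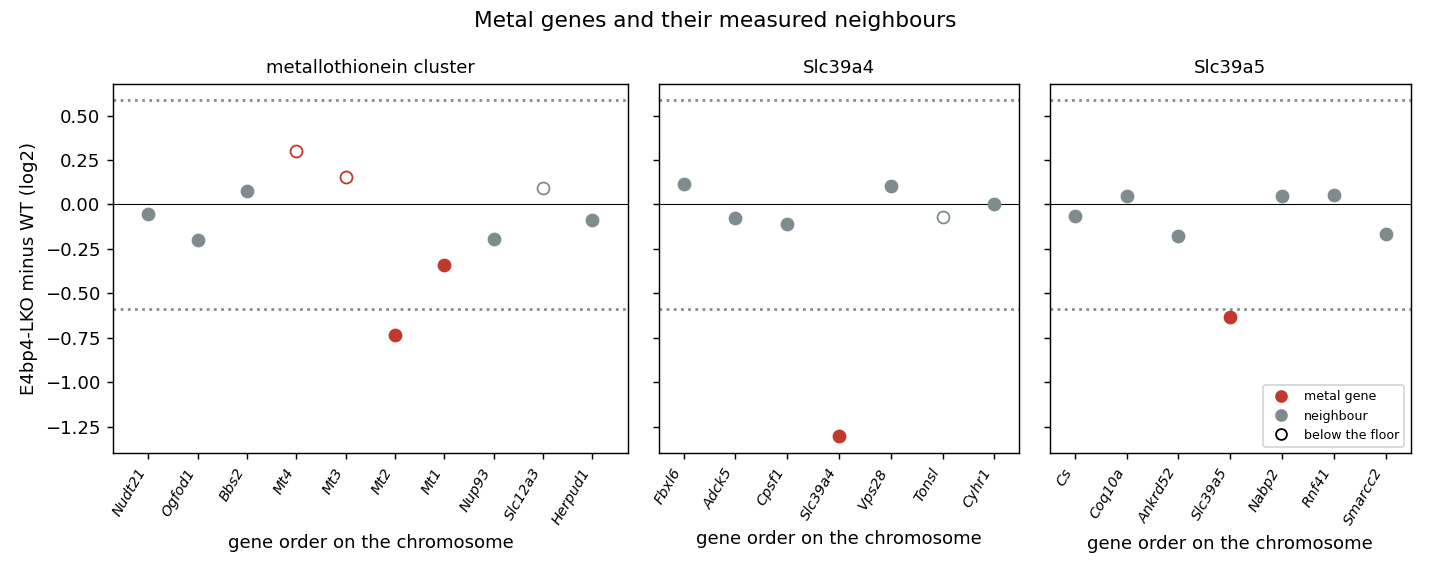
Difference between the arrays (E4bp4-LKO minus WT, log2) for the metallothionein cluster, Slc39a4 and Slc39a5 (red) and the 3 nearest measured protein-coding genes on each side (grey), in chromosome order, with 1.5-fold dotted and genes under the floor as open circles. Mt2, Mt1, Slc39a4 and Slc39a5 lie below all of their neighbours.

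Importers well known from hepatocytes differed by less. Slc39a14 encodes ZIP14, which brings zinc, manganese and iron into hepatocytes and is induced in inflammation. It read 8.46 on the E4bp4-LKO array and 8.49 on the WT array, a difference of -0.03. Slc39a8, which encodes its close relative ZIP8, a manganese and zinc importer, read 7.70 on the E4bp4-LKO array and 7.54 on the WT array (0.16). Slc39a1, a broadly expressed zinc importer, read 8.79 on the E4bp4-LKO array and 8.92 on the WT array (-0.13).

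The ZIP proteins of the secretory pathway differed little. Slc39a7, which releases zinc from the endoplasmic reticulum, read 7.53 on the E4bp4-LKO array and 7.61 on the WT array (-0.08). Slc39a9, a Golgi protein gene, read 8.49 on the E4bp4-LKO array and 8.66 on the WT array (-0.17). A probe set that names Slc39a9 together with Erh went the other way, at 5.81 on the E4bp4-LKO array and 5.28 on the WT array, so the direction of Slc39a9 is uncertain.

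The remaining ZIP genes had smaller signals. Slc39a3, Slc39a11 and Slc39a13 differed by -0.16 each, and Slc39a6 by -0.24 with its E4bp4-LKO value of 4.15 under the floor. Slc39a10, the paralog of Slc39a6 and a gene that zinc is known to repress through MTF1, read 5.86 on the E4bp4-LKO array and 5.66 on the WT array (0.19). Slc39a2 and Slc39a12 were under the floor on both arrays. Over the 12 ZIP genes above the floor, 10 were negative and 2 positive, and the median was -0.16. Of all genes above the floor 54.5% were negative, and their median was -0.02.

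The exporter family Slc30a showed no member past 1.5-fold in either direction. Only 5 of its genes were above the floor, and the background was 2.06% lower and 1.51% higher, so none is near it. Slc30a4, which loads zinc into vesicles and is the gene of the lethal milk mouse, differed most. It read 6.21 on the E4bp4-LKO array and 6.52 on the WT array (-0.32). Slc30a5 and Slc30a6, whose products pair to supply zinc to enzymes of the secretory pathway, differed by -0.09 and -0.01. Slc30a7, of the Golgi, differed by 0.01 and Slc30a9, a mitochondrial zinc exporter gene, by 0.06. The Slc30a5, Slc30a6, Slc30a7 and Slc30a9 values lay between 6.95 and 8.04 on the E4bp4-LKO array and between 6.94 and 8.05 on the WT array. The synaptic vesicle gene Slc30a3, the secretory gland gene Slc30a2 and the insulin granule gene Slc30a8 were under the floor on both arrays.

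Slc30a10, a manganese exporter of hepatocytes and enterocytes, was measured by 2 probe sets that it shares with Gm2061. The set that lists Slc30a10 first read 6.998 on the E4bp4-LKO array and 6.442 on the WT array, a difference of 0.56 (1.47-fold higher). The set that lists Gm2061 first read 4.50 on the E4bp4-LKO array and 3.55 on the WT array (0.95), the WT value being under the floor. Both read higher on the E4bp4-LKO array, and which of the 2 genes gave the signal cannot be told apart here.

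Copper genes differed little. Slc31a1, the copper importer CTR1 of the plasma membrane, read 9.17 on the E4bp4-LKO array and 9.26 on the WT array (-0.10). Slc31a2, its relative in endosomes and lysosomes, read 7.94 on the E4bp4-LKO array and 7.86 on the WT array (0.08).

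The paired copper pumps differed in opposite directions. Atp7b, the Wilson disease gene, which sends copper to ceruloplasmin and to bile, read 6.67 on the E4bp4-LKO array and 6.89 on the WT array (-0.22). Atp7a, the Menkes disease gene, which exports copper from most other cell types, read 5.81 on the E4bp4-LKO array and 5.49 on the WT array (0.32, 1.25-fold higher). Atp7a was the highest of the 26 metal genes above the floor, yet 826 genes (7.45%) of all those above the floor were as high or higher.

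Of 13 further copper proteins above the floor, none passed 1.5-fold in either direction, and the median was 0.02. That count is near the background, 2.06% of all genes above the floor lower and 1.51% higher. Farthest from 0 were Cox19 (-0.38) and Cox17 (0.37), which help to bring copper to cytochrome oxidase, the extracellular superoxide dismutase gene Sod3 (-0.35) and Sco1, another cytochrome oxidase copper chaperone (0.34). Ceruloplasmin (Cp), the copper carrier of plasma, differed by -0.06.

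The Slc11a genes were both slightly negative. Slc11a1 encodes NRAMP1, which pumps metal out of the phagosome of macrophages. It read 6.95 on the E4bp4-LKO array and 7.07 on the WT array (-0.12). Of 9 macrophage markers, 3 were negative, namely Cd68 (-0.43), Adgre1 (-0.27) and Csf1r (-0.05), and 6 were positive, between 0.07 for Cd5l and 0.40 for Lyz2. The share of negative differences among all genes above the floor was 54.5%. Slc11a2 encodes DMT1, the ferrous iron transporter of enterocytes and of endosomes, and read 6.68 on the E4bp4-LKO array and 6.88 on the WT array (-0.21). Among 14 iron handling genes none passed 1.5-fold and the median was -0.01. Of all genes above the floor, 2.06% were lower and 1.51% higher by as much, so none of 14 is near the background. Farthest from 0 were Tfrc, the transferrin receptor (-0.41), Id1, a target of BMP signals (-0.34), Hamp, the iron hormone hepcidin (0.26), and Hmox1, the heme-degrading enzyme (-0.18).

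**Figure D4:**
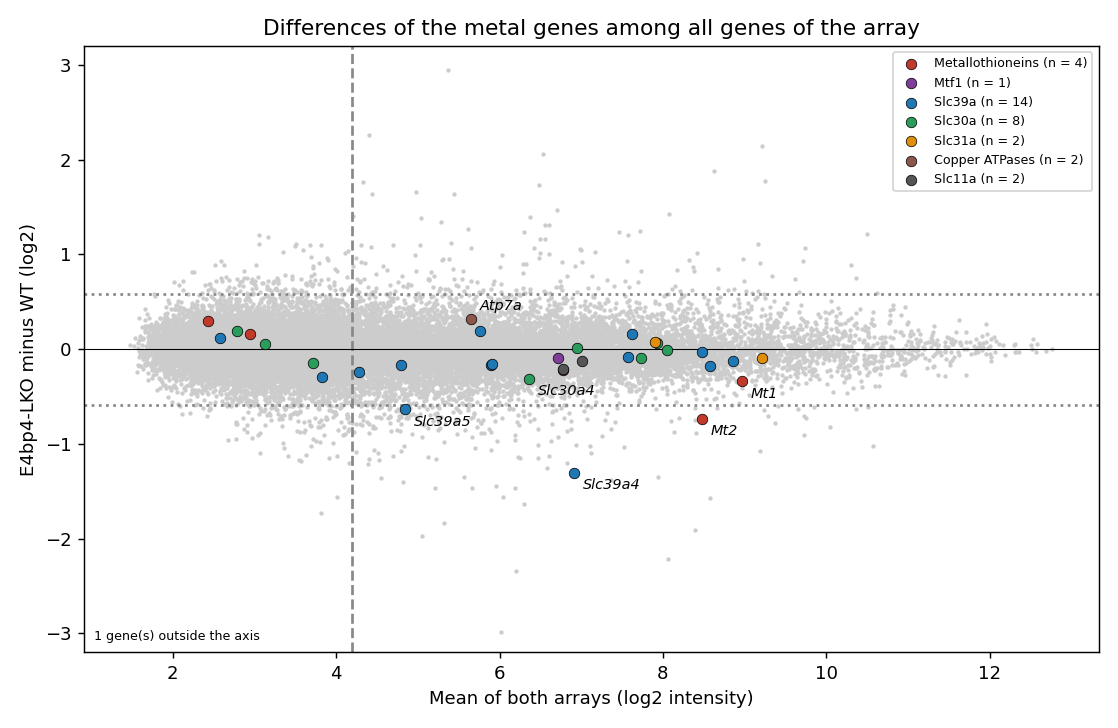
Difference between the arrays (y axis, E4bp4-LKO minus WT, log2) against the mean of both arrays (x axis, log2 intensity) for all genes (grey) and the 33 metal genes by family, with 1.5-fold dotted and the floor dashed. Slc39a4, Mt2 and Slc39a5 lie below the lower line and the other metal genes lie within the cloud.

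The size of a difference that is common on these arrays depends on the level. Among the 5545 genes above the 75th percentile of the means (6.28), the central 95% of differences ran from -0.43 to 0.48. Slc39a4 and Mt2 lay outside this range, and the other 17 metal genes at such levels lay inside it, Mt1 included. Among the 5545 genes between the floor and that percentile it ran from -0.61 to 0.50. Slc39a5 lay just outside, and Atp7a and Slc39a10 inside.

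**Figure D5:**
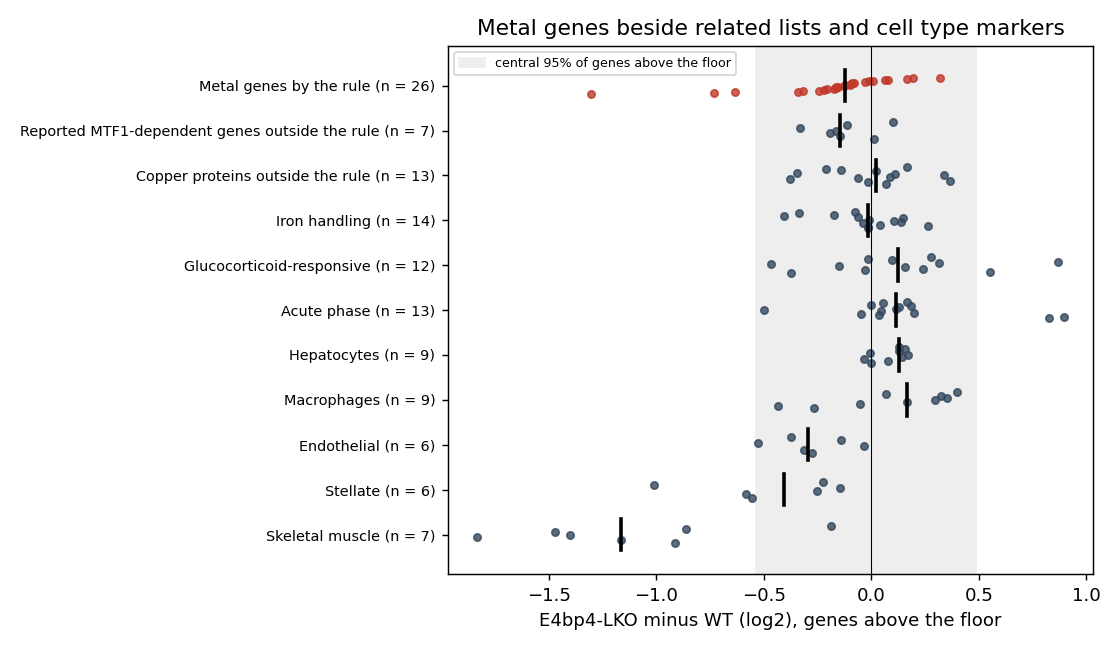
Difference between the arrays (x axis, E4bp4-LKO minus WT, log2) for each gene above the floor in the metal set (red), in related gene lists and in cell type marker lists, with the median as a bar and the central 95% of all genes above the floor shaded. The metal set has a median of -0.12 with a tail of 3 lower genes, and the skeletal muscle markers (median -1.16) lie farther to the left.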

How the data were processed

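Per the submitters' processing notes the authors used RMA and R 3.4.0, and each deposited value is the log2 intensity of a probe set on 1 array. RMA corrects background, equalises arrays by quantiles and shrinks differences of dim probe sets. With 1 array for each group the number of arrays limits the precision, and no test was run.

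Of 41345 probe sets, the platform annotation gives 1 symbol to 23521, several to 1814 and none to 16010. Probe sets with 1 symbol were averaged by gene. Members and lists were chosen with earlier results of these data known. Named are metallothioneins, Mtf1, members at least 1.5-fold apart, members above the 75th percentile, the up to 4 members of each further list farthest from 0, and 3 measured neighbours on each side; neighbours of Slc39a4 and Slc39a5 and other examples were added after their values were seen. All 33 members matched RefSeq symbols through Entrez identifiers. The calculation was tested on simulated data. Alternatives covered probe set choice, centring, intensity trend, floor and fold. Python 3.11.15 and pandas 2.3.3 were used.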

Additional observations from a re-analysis of the deposited data

Results flagged for a closer look

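Outside the genes counted above, the probe set that lists Gm2061 first and Slc30a10 second read higher on the E4bp4-LKO array by 0.95 on the log2 scale, at 4.50 on the E4bp4-LKO array and 3.55 on the WT array. It drew attention as a signal in data that the counts do not use, above the WT level and above the floor on the E4bp4-LKO array. Its mean over both arrays, 4.03, was under the floor of 4.20, so by the rule used for the counts it would not have been counted.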

How the results depend on the processing

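The 3 lower genes and the absence of higher ones were recomputed under 9 alternatives. Adding probe sets with several symbols gave 1 higher gene, Slc30a10, in place of 0. That value averages the probe sets shared with Gm2061, at 0.56 and 0.95. By itself, the set that lists Slc30a10 first was 1.47-fold higher, under the threshold. A fold threshold of 2 left 1 lower gene, Slc39a4, in place of 3, and a floor at the 75th percentile left 2. In the other alternatives the counts were 3 and 0. At a threshold of 1.3-fold this was against a larger background, 6.18% of all genes lower and 5.16% higher. The median of the metal genes ran from -0.12 to -0.09, and that of all genes from -0.02 to -0.00349. For the 22 named genes most alternatives could move little: choosing the brightest probe set moved none, since each has 1, and centring moved all by 0.0128. Removing the intensity trend moved them by at most 0.0285. Shared probe sets touched Mtf1, at -0.03 against a reported -0.10, and Slc39a9, at 0.18 against -0.17. No paired analysis was possible because each group has 1 array. Without detection calls, signal over background was judged from the level alone, which limits the dim genes.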
